A study of Mus musculus with 17 samples.

Results

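The genes described here are 10 heat shock chaperones: Hspa1a, Hspa1b, Hspa8, Hsph1, Dnajb1, Hsp90aa1, Hsp90ab1, Hspb1, Hspd1 and Hspe1. They were taken by symbol from a count table of 55487 mouse genes, and positions given beside gene identifiers are those of GENCODE M21 on GRCm38. All 10 were found, and all 10 were among the 16851 genes that passed the filter on low counts. RNA sequencing gave their transcript levels in the choroid plexus, the tissue inside the brain ventricles whose epithelium makes cerebrospinal fluid, during and after experimental colitis.

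All mice were C57BL/6, and the whole choroid plexus was dissected out of the lateral ventricles. Colitis was induced with dextran sodium sulfate (DSS), a polymer that damages the colon lining. The 17 libraries comprised untreated controls (CTRL, n = 5), mice after 1 day of DSS (T1, n = 4), mice after 3 days of DSS (T3, n = 4), and mice after 3 days of DSS followed by 2 days of water (T5, n = 4). The labels give no age or sex, and they do not say that libraries of a group came from separate animals, so the p-values measure the spread between these libraries, which may be technical in part.

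Heat shock chaperones bind unfolded or partly folded proteins and keep them from aggregating. HSP70 proteins work in cycles with HSP40 partners, which deliver the client, and with exchange factors of the HSP110 family, which release the nucleotide. HSP90 acts later on folding clients such as kinases and steroid receptors, small heat shock proteins hold unfolded proteins without using ATP, and the HSP60 barrel with its HSP10 lid folds proteins inside mitochondria. Some of these genes are active in every cell and others are switched on mainly under stress, when heat shock factor 1 binds repeats of the letters GAA and TTC near their start sites.

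Libraries held between 8875921 and 26839417 counts (median 18004090). Transcripts of the choroid plexus epithelium were abundant in every library: all 12 of its marker genes averaged at least 1 CPM in every group (CPM are read counts scaled to a common library size, here with TMM factors), and transthyretin (Ttr), the main secreted protein of this epithelium, took 6.61 to 13.6% of the counts. A subset of 4 libraries, T1 replicates 2, 3 and 4 and T3 replicate 4, carried running sample numbers of 28 or above in their titles, and the other 13 had lower numbers. In the subset mitochondrially encoded genes took 1.86 to 2.04% of the counts, against 2.50 to 3.75% in the other 13 libraries, and long non-coding genes took 0.926 to 1.18%, against 0.662 to 0.947%. CTRL had no library of the subset, T5 had none, and T1 had 1 library outside it. The sample number and the T1 group therefore cannot be told apart beyond that 1 library, so a fit with a term for sample numbers of 28 or above is given beside the counts over genes and beside the genes it bears on, and 3 genes are also given from the other 13 libraries alone. In both of these fits the level of T1 rests largely or wholly on 1 library, which is assumed to vary like the libraries of the other groups, so their p-values carry little weight.

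Upstream DNA of the stress-inducible genes is printed here because it carries the letters that heat shock factor 1 is known to bind, and because it shows which of the genes are near copies of each other. RefSeq promoter windows on GRCm38.p6, each 250 bases before to 50 after a gene's start, were held for 7 of the 10 genes, and not for Hspa8, Hsp90aa1 and Hsp90ab1. The following lines give the 130 bases just upstream of the start of 5 of them, 5′ to 3′ on the gene's strand, with heat shock element letters in capitals.
Hspa1a (chr17:34972157-34972286, minus strand): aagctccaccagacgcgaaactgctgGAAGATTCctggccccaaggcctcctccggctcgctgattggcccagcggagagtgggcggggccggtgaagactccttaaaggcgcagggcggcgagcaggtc
Hspa1b (chr17:34959239-34959368, minus strand): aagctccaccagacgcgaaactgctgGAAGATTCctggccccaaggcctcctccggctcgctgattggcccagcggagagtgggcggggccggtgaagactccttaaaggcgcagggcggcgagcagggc
Hsph1 (chr5:149636337-149636466, minus strand): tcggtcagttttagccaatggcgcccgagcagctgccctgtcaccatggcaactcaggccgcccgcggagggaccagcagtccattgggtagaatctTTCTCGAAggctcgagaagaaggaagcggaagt
Hspb1 (chr5:135887789-135887918, plus strand): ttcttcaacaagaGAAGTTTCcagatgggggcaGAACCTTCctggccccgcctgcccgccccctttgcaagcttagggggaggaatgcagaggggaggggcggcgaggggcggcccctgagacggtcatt
Hspe1 (chr1:55088018-55088147, plus strand): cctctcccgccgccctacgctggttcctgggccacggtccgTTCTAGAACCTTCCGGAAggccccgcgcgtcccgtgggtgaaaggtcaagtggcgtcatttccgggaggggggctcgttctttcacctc
The capitals mark GAANNTTC or TTCNNGAA, where N is any base. Both words read the same on the opposite strand, and where they are chained they overlap by 3 bases. In Hspa1a and Hspa1b, which lie beside each other on chromosome 17, the upstream stretches were identical at 129 of 130 bases (99.2%), and both had GAANNTTC beginning at position -104 from the start. Upstream of the RefSeq start used here Hsph1 had TTCNNGAA at -33, and the same word lay at -54 from its other RefSeq start. The GENCODE gene of Hsph1 begins at 149636376, inside the printed stretch, so that this word lies within the annotated gene. Hspb1 had GAANNTTC at -117 and at -97. Hspe1 had the longer chain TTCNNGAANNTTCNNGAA, beginning at -89. The same 18-base stretch lies in the window of the second annotated start of Hspd1, its neighbour on the opposite strand, at -144.

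Across all 32851 windows of the table, GAANNTTC was found in 7.86%, TTCNNGAA in 8.52% and at least one of them in 15.1%, and 6 of the 7 chaperone genes had at least one. The chain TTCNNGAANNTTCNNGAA was found in 5 windows, or 0.0152%. These belonged to Hspd1, Hspe1, Arpc2, Fam149a and Chordc1, and Chordc1 encodes a co-chaperone of HSP90. Dnajb1, on chromosome 8, had neither short word in its window. The CCAAT letters (both strands searched) were found in 37.4% of all windows and in 6 of the 10 chaperone windows (5 of the 7 genes). TATAAA was found in 13.6% of all windows and in 0 of the 10 (0 of the 7 genes). A match describes letters and not a bound site.

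Per length of exon, Hsp90ab1, Hspa8 and Hsp90aa1 had the highest mean levels in choroid plexus. Averaged over the 17 libraries, Hsp90ab1 stood at 406 CPM per kb, Hspa8 at 255 CPM per kb and Hsp90aa1 at 175 CPM per kb. A middle range held Hspe1 (78.0 CPM per kb), Hspd1 (68.6 CPM per kb), Hspb1 (52.8 CPM per kb), Dnajb1 (40.2 CPM per kb) and Hsph1 (36.4 CPM per kb). The inducible HSP70 genes were lowest, Hspa1b at 3.0 CPM per kb and Hspa1a at 2.28 CPM per kb. Every library of Hsp90ab1 (334 to 483 CPM per kb) lay above every library of Hspa8 (178 to 310 CPM per kb). This separation depends on the length used, that of all annotated exons merged (2999 bases for Hsp90ab1, 4301 for Hspa8). Before division by length they overlapped, at 1003 to 1448 CPM and 766 to 1335 CPM. Per kb, Hspa8 overlapped with Hsp90aa1 (109 to 220 CPM per kb), whose lowest library lay below the highest of Hspe1 (127 CPM per kb). Neighbours within the middle range overlapped, and so did Hspa1b (1.19 to 7.05 CPM per kb) and Hspa1a (1.39 to 4.71 CPM per kb). Together the 10 genes took between 0.320 and 0.433% of a library's reads.

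**Figure D1:**
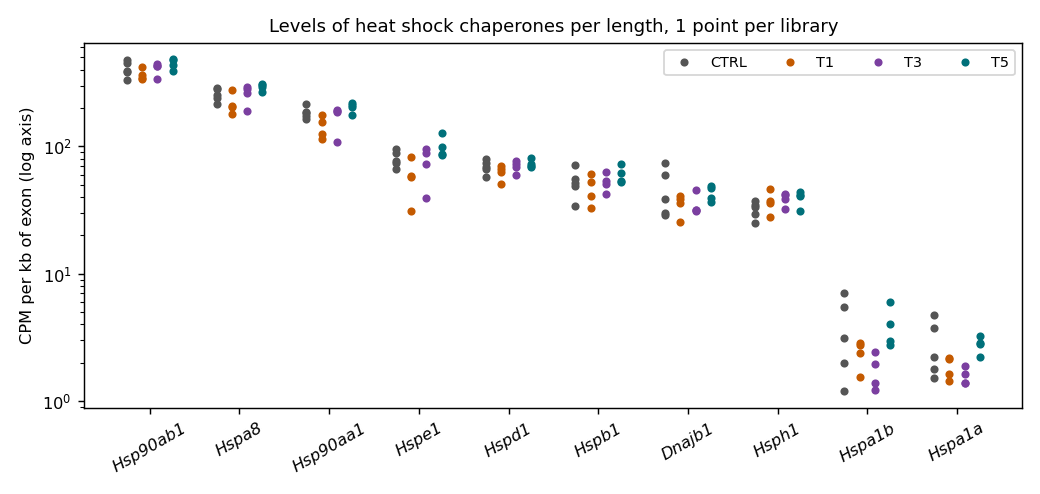
Level of each chaperone gene in each library as TMM-normalised CPM per kb of exon, on a log axis, with 1 point per library coloured by group and genes ordered by their mean over the 17 libraries. Hsp90ab1, Hspa8 and Hsp90aa1 have the highest means, and Hspa1a and Hspa1b lie between 1.19 and 7.05 CPM per kb, below every library of every other gene.

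No chaperone gene passed edgeR's quasi-likelihood test with Benjamini-Hochberg adjustment at 0.05 in any of the 6 comparisons between groups. Among all 16851 genes, 0% passed in T1 against CTRL, 0% in T3 against CTRL, 0% in T5 against CTRL, 0% in T3 against T1, 4.02% in T5 against T1 and 0% in T5 against T3. At an unadjusted p under 0.05, 1 chaperone gene was lower in T1 than in CTRL, 2 were lower in T3 than in CTRL, 0 differed between T5 and CTRL, 0 differed between T3 and T1, 3 were higher in T5 than in T1, and 2 were higher in T5 than in T3. The shares of all genes at that p in the same direction were 11.7% for lower in T1 than in CTRL, 1.77% for lower in T3 than in CTRL, 13.1% for higher in T5 than in T1 and 4.31% for higher in T5 than in T3. In either direction they were 21.1% between T1 and CTRL, 7.83% between T5 and CTRL and 8.2% between T3 and T1. DESeq2 called 0 of the 10 genes in all comparisons but T5 against T1, where it called 3, and limma-voom with sample quality weights called 3 in T1 against CTRL, 3 in T3 against T1 and 3 in T5 against T1; these were Hspa8, Hsp90aa1 and Hspe1 each time. Of the genes with a DESeq2 adjusted p, 12.8% were called in T5 against T1, 9.18% in T1 against CTRL and 0.52% or less in the rest. In T1 against CTRL DESeq2 gave no adjusted p for Hspa1a and Hspa1b, so neither could be called there. Of all genes limma-voom called 24.2% in T1 against CTRL, 24.1% in T3 against T1 and 22.1% in T5 against T1. Each of the 10 genes overlapped between the groups in T1, T3 and T5 against CTRL and in T3 against T1, where 6.76%, 1.7%, 2.56% and 2.68% of all genes did not overlap in either direction. A lower or higher value in whole tissue can reflect fewer cells of a type or less RNA per cell, which cannot be told apart in bulk samples.

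Without such a call, the values by library showed 3 patterns. Hspa8, Hsp90aa1 and Hspe1 were low in the subset of sample numbers of 28 or above, Hspa1a, Hspa1b and Dnajb1 varied most among untreated controls, and Hsph1 had libraries above the highest control in every DSS group. The genes follow in the order of the HSP70 cycle, HSP90, the small heat shock protein and the mitochondrial chaperonin.

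**Figure D2:**
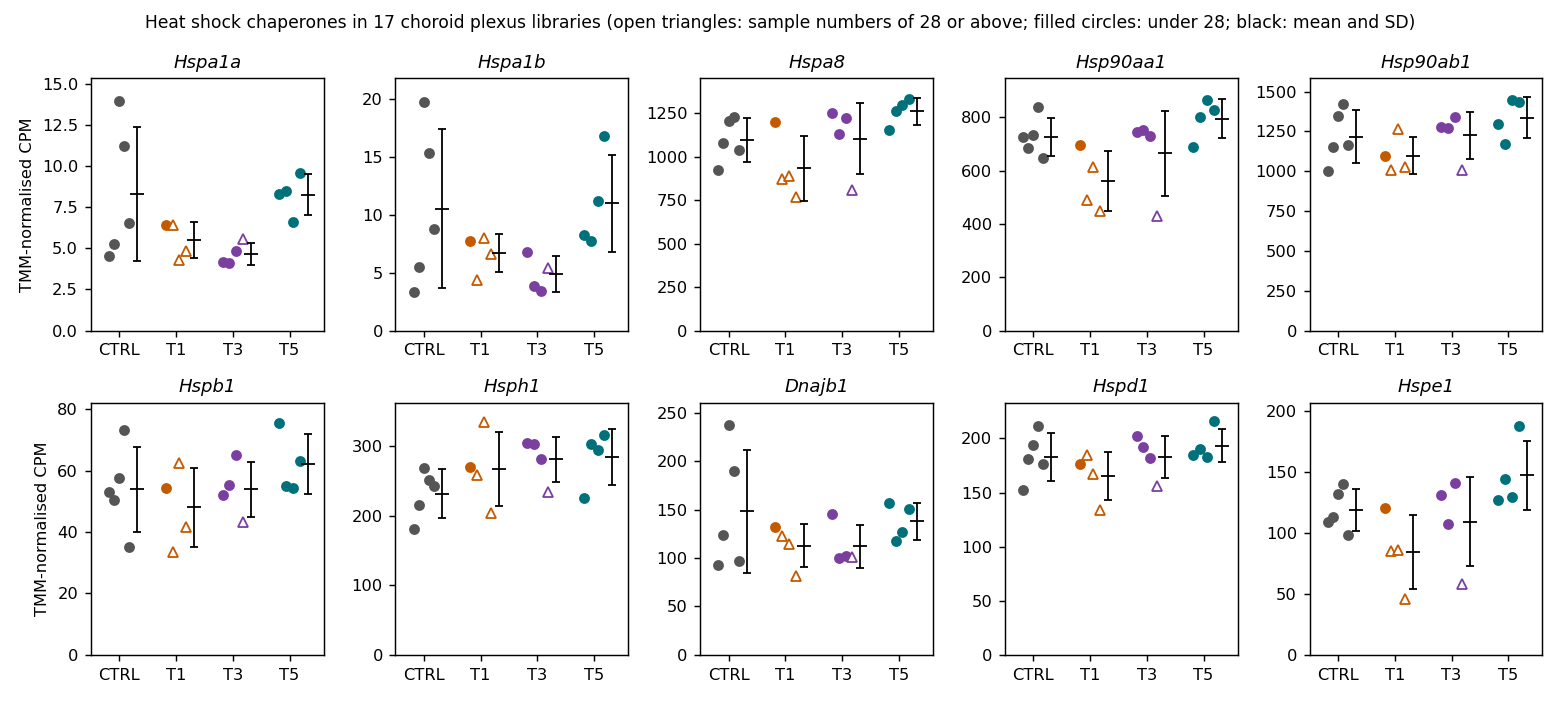
TMM-normalised CPM of the 10 chaperone genes in each of the 17 libraries (y axes start at 0), by group, with the mean and SD in black and open triangles for the 4 libraries with sample numbers of 28 or above. Hspa8, Hsp90aa1 and Hspe1 are lower in the open triangles than in every filled circle, and Hspa1a, Hspa1b and Dnajb1 spread most within CTRL.

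The inducible HSP70 genes Hspa1a (ENSMUSG00000091971, chr17:34969190-34972156, minus strand) and Hspa1b (ENSMUSG00000090877, chr17:34956436-34959238, minus strand) encode proteins that are nearly the same and are made mainly after stress. Hspa1a had 4.52, 5.29, 14.0, 11.2 and 6.56 CPM in the CTRL libraries. It had 6.43, 6.39, 4.27 and 4.83 CPM in T1 and 4.14, 4.11, 4.84 and 5.56 CPM in T3. In T5 it had 8.31, 8.5, 6.60 and 9.60 CPM. CTRL replicates 3 and 4 were the highest libraries of all, every T5 library lay above every T1 and every T3 library, and CTRL overlapped with all 3 DSS groups.

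Hspa1b showed a like order of levels. It had 3.33, 5.53, 19.8, 15.4 and 8.80 CPM in CTRL, with replicates 3 and 4 again the highest of that group. It had 7.76, 4.36, 8.03 and 6.65 CPM in T1, and 6.84, 3.88, 3.43 and 5.44 CPM in T3. In T5 it had 8.26, 7.72, 11.2 and 16.8 CPM, all above T3 but overlapping with T1 and with CTRL. The share of genes whose T5 libraries all lay above those of the other group was 3.04% against T3 and 5.52% against T1.

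These 2 genes differed most in T5 against T3 and in T3 against CTRL. Hspa1a averaged 8.25 ± 1.24 CPM in T5 and 4.66 ± 0.688 CPM in T3 (SD, n = 4 each), a log2 fold change of 0.82 ± 0.31 (SE) with an edgeR adjusted p of 0.411. For Hspa1b, the means were 11 ± 4.17 CPM in T5 and 4.90 ± 1.56 CPM in T3, a log2 fold change of 1.18 ± 0.44 with an edgeR adjusted p of 0.411. T3 against CTRL gave log2 fold changes of -0.83 ± 0.29 for Hspa1a and -1.12 ± 0.43 for Hspa1b, both with an edgeR adjusted p of 0.911. The CTRL means of 8.31 ± 4.09 CPM for Hspa1a and 10.6 ± 6.86 CPM for Hspa1b rested in large part on replicates 3 and 4, and without CTRL replicate 3 the log2 fold changes of T3 against CTRL were -0.56 for Hspa1a and -0.76 for Hspa1b.

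Reads cannot be divided with certainty between the 2 copies, since 58.8% of the 50-base stretches of Hspa1a transcripts also occur in Hspa1b and 62.3% of those of Hspa1b in Hspa1a. How the authors' counting treated reads that match both genes is not given in the sources used here. Hspa1b held 40.5 to 65.3% of the pair's reads in a library, and the pair had 114 to 802 reads. Summed into 1 feature, the pair averaged 18.9 ± 10.9 CPM in CTRL (SD, n = 5), 12.2 ± 1.48 CPM in T1, 9.56 ± 1.66 CPM in T3 and 19.3 ± 4.82 CPM in T5 (SD, n = 4 each). The summed log2 fold changes were 1.01 ± 0.34 for T5 against T3 (95% interval 0.29 to 1.74, edgeR adjusted p = 0.36) and -0.98 ± 0.33 for T3 against CTRL (-1.68 to -0.29, edgeR adjusted p = 0.911). They were -0.63 ± 0.33 for T1 against CTRL (-1.33 to 0.06) and 0.03 ± 0.32 for T5 against CTRL (-0.65 to 0.71).

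Hspa8 (ENSMUSG00000015656, chr9:40800984-40810087, plus strand) encodes the constitutive HSP70 of the cytosol, which also strips clathrin coats off vesicles. It had 923, 1080, 1206, 1230 and 1039 CPM in CTRL. In T1 it had 1202, 875, 892 and 766 CPM, and in T3 it had 1255, 1129, 1224 and 808 CPM. It had 1154, 1263, 1296 and 1335 CPM in T5. T1 replicate 1, with its sample number of 9, lay within the range of T5, whereas T1 replicates 2, 3 and 4 and T3 replicate 4 were the lowest 4 of the 17 libraries.

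The difference of Hspa8 between T5 (1262 ± 77.6 CPM) and T1 (934 ± 187 CPM; SD, n = 4 each) was a log2 fold change of 0.43 ± 0.16, with a 95% interval of 0.10 to 0.77 and an edgeR adjusted p of 0.101. With the term for sample numbers it was 0.05 (edgeR adjusted p = 0.942), and with the 13 libraries of lower sample number alone, where T1 is 1 library, it was 0.09. Against CTRL the log2 fold changes of Hspa8 were -0.23 ± 0.15 in T1, 0.01 ± 0.15 in T3 and 0.20 ± 0.15 in T5, and all 3 intervals held 0. With the term they were 0.16 in T1, where the sign turned, 0.13 in T3 and 0.20 in T5. The inducible pair made up 1.0 to 4.19% of the level of Hspa8 per kb. The group means of this share were 2.48 ± 1.23% in CTRL, 1.98 ± 0.223% in T1, 1.35 ± 0.474% in T3 and 2.27 ± 0.477% in T5. None of the 50-base stretches of Hspa8 occurs in Hspa1a or Hspa1b, although 38.6% of them occur in some other annotated gene.

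Hsph1 (ENSMUSG00000029657, chr5:149614287-149636376, minus strand) encodes HSP110, which exchanges the nucleotide of HSP70. It had 181, 216, 270, 252 and 243 CPM in CTRL. It had 271, 259, 335 and 204 CPM in T1, and 305, 304, 282 and 235 CPM in T3. In T5 it had 226, 304, 296 and 316 CPM. In each DSS group 2 or more libraries lay above the highest control, and each group overlapped with CTRL. T1 replicate 1 did so narrowly, at 270.5 CPM against 269.7 CPM in CTRL replicate 3. The share of all genes with this pattern was not counted.

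The log2 fold change of Hsph1 against CTRL was 0.20 ± 0.15 in T1 (95% interval -0.12 to 0.52), 0.28 ± 0.15 in T3 (-0.04 to 0.60) and 0.30 ± 0.15 in T5 (-0.02 to 0.62). The edgeR adjusted p was 0.439 in T1, 0.911 in T3 and 0.664 in T5. These comparisons share the same 5 control libraries. Hsph1 was positive at all 3 times, in this fit alone among the 10 genes, and with the term for sample numbers Hspa8, Hspb1, Hspd1 and Hspe1 were positive at all 3 times as well. The 4 libraries with sample numbers of 28 or above (204 to 335 CPM) overlapped with the other 13 (181 to 316 CPM).

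Dnajb1 (ENSMUSG00000005483, chr8:83608193-83612653, plus strand) encodes the HSP40 that delivers clients to HSP70. It had 92.5, 124, 238, 190 and 96.5 CPM in CTRL, and replicates 3 and 4 were the highest of all 17 libraries. It had 132, 123, 115 and 81.9 CPM in T1, and 145, 99.9, 102 and 101 CPM in T3. In T5 it had 157, 117, 127 and 151 CPM. The DSS groups lay inside the range of CTRL except T1 replicate 4, which was below it.

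Log2 fold changes of Dnajb1 against CTRL were -0.39 ± 0.25 in T1, -0.40 ± 0.25 in T3 and -0.10 ± 0.24 in T5, with edgeR adjusted p-values of 0.359, 0.911 and 0.954. The coefficient of variation of Dnajb1 was 13.7% within T5 and 42.8% within CTRL. That of Hspa1a was 15.0% within T5 and 49.2% within CTRL, and that of Hspa1b was 37.9% within T5 and 65.0% within CTRL. Over all 17 libraries the coefficient for Dnajb1 was 30.3%, larger than that of 95.7% of the 3755 genes that averaged 50 CPM or more.

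**Figure D3:**
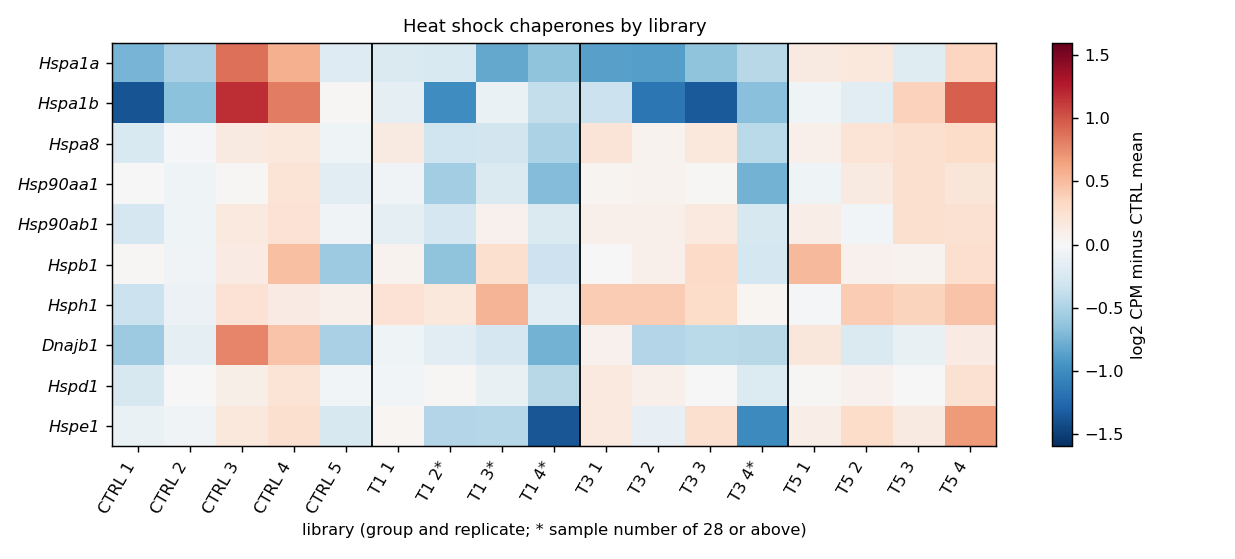
Difference of each library from the CTRL mean on the log2 CPM scale (colour, blue below and red above), with the 10 genes down the page and the 17 libraries across it; an asterisk marks sample numbers of 28 or above. CTRL replicates 3 and 4 are red for Hspa1a, Hspa1b and Dnajb1, and the columns with an asterisk are blue for Hspa8, Hsp90aa1 and Hspe1.

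Hsp90aa1 (ENSMUSG00000021270, chr12:110690605-110702728, minus strand) encodes the stress-responsive form of cytosolic HSP90. Hsp90aa1 had 724, 686, 733, 839 and 645 CPM in CTRL. In T1 it had 694, 490, 614 and 449 CPM, and in T3 it had 746, 753, 730 and 428 CPM. It had 690, 802, 863 and 826 CPM in T5. As for Hspa8, the lowest 4 libraries were T1 replicates 2, 3 and 4 and T3 replicate 4, and T1 replicate 1 lay within the range of CTRL and of T5.

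Hsp90aa1 averaged 726 ± 72.4 CPM in CTRL (SD, n = 5), 562 ± 113 CPM in T1, 664 ± 158 CPM in T3 and 795 ± 74.7 CPM in T5 (SD, n = 4 each). T5 against T1 gave a log2 fold change of 0.50 ± 0.18, with a 95% interval of 0.13 to 0.87 and an edgeR adjusted p of 0.0884, and 0.05 with the term for sample numbers (adjusted p = 0.942) or 0.22 with the 13 libraries alone, where T1 is 1 library. T1 against CTRL gave -0.37 ± 0.17 (unadjusted p = 0.0422, edgeR adjusted p = 0.221), and 0.08 with that term, where the sign turned. Against CTRL it was -0.13 ± 0.17 in T3 (-0.01 with the term) and 0.13 ± 0.17 in T5.

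Hsp90ab1 (ENSMUSG00000023944, chr17:45567775-45573271, minus strand), the gene of the constitutive form, varied less. It ranged from 1003 to 1420 CPM in CTRL, 1006 to 1262 CPM in T1, 1007 to 1341 CPM in T3 and 1169 to 1448 CPM in T5, and every group overlapped with every other. Its log2 fold changes against CTRL were -0.15 ± 0.13 in T1, 0.01 ± 0.13 in T3 and 0.14 ± 0.13 in T5, all with intervals that held 0. The ratio of Hsp90aa1 to Hsp90ab1 per kb was 0.324 to 0.372 in the 4 libraries of sample number 28 or above, and 0.406 to 0.551 in the other 13, without overlap. The transcripts of these 2 genes share none of their 50-base stretches with each other. However, 47.5% of those of Hsp90aa1 and 3.44% of those of Hsp90ab1 occur in some other annotated gene. How reads that match several genes were counted is not given, so the ratio may depend on it.

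Hspb1 (ENSMUSG00000004951, chr5:135887919-135889563, plus strand) encodes the small heat shock protein HSP25, the mouse form of human HSP27. It had 53.0, 50.6, 57.6, 73.2 and 35.1 CPM in CTRL. In T1 it had 54.4, 33.6, 62.6 and 41.8 CPM, and in T3 it had 52.2, 55.4, 64.9 and 43.2 CPM. It had 75.4, 55.1, 54.5 and 63.3 CPM in T5. All groups overlapped, and the log2 fold changes against CTRL were -0.16 ± 0.20 in T1, 0.00 ± 0.20 in T3 and 0.20 ± 0.20 in T5. The T1 value turned to 0.08 with the term for sample numbers.

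Hspd1 (ENSMUSG00000025980, chr1:55077835-55088243, minus strand) and Hspe1 (ENSMUSG00000073676, chr1:55088132-55091307, plus strand) encode HSP60 and HSP10, the barrel and the lid of the mitochondrial chaperonin, and lie head to head on chromosome 1. Hspd1, on the minus strand, has RefSeq starts at 55088243 and 55087932, and Hspe1, on the plus strand, starts at 55088148, so the first exons overlap in part. Reads from that overlap cannot be told apart, since the strand setting of the counting is not given in the sources used here. Pseudogenes named after Hspd1 took 246 reads in 5 pseudogenes (0.443% of the reads of Hspd1). Those named after Hspe1 took 62 reads in 6 pseudogenes (0.178%). Copies under other names were not counted. Of the 50-base stretches, 39.7% of those of Hspd1 and 18.4% of those of Hspe1 occur in some other annotated gene. The treatment of reads that match several genes is not given, so the low pseudogene counts do not show how many reads were shared.

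Hspd1 was the steadiest of the 10 genes. It ranged from 152 to 212 CPM in CTRL, 134 to 184 CPM in T1, 156 to 202 CPM in T3 and 183 to 216 CPM in T5. Its coefficient of variation over the 17 libraries was 11.5%, against a median of 15.5% for those 3755 genes. Its log2 fold changes against CTRL were -0.15 ± 0.12 in T1, 0.00 ± 0.12 in T3 and 0.08 ± 0.12 in T5. The T1 value was 0.01 with the term for sample numbers.

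Hspe1 varied far more than its partner, with a coefficient of 29.6%. It had 109, 113, 132, 140 and 98.4 CPM in CTRL. In T1 it had 121, 85.2, 85.7 and 45.5 CPM, and in T3 it had 131, 107, 140 and 58.1 CPM. It had 127, 144, 130 and 188 CPM in T5. T1 replicates 2, 3 and 4 and T3 replicate 4 were again the lowest 4, T1 replicate 1 lay within CTRL, and every T5 library lay above every T1 library.

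Hspe1 averaged 147 ± 28.2 CPM in T5, against 84.2 ± 30.7 CPM in T1 (SD, n = 4 each). The log2 fold change of 0.80 ± 0.27 had a 95% interval of 0.24 to 1.37 and an edgeR adjusted p of 0.0771, the lowest adjusted p of any chaperone gene in any of the 6 comparisons. With the term for sample numbers it was 0.14 (edgeR adjusted p = 0.884), and with the 13 libraries of lower sample number alone, where T1 is 1 library, it was 0.30. Against CTRL it was -0.49 ± 0.25 in T1, -0.12 ± 0.25 in T3 and 0.31 ± 0.25 in T5. With the term it was 0.17 in T1 and 0.05 in T3, both with the sign turned, and 0.31 in T5. The ratio of Hspe1 to Hspd1 per kb was 0.611 to 0.917 in the 4 libraries of sample number 28 or above, and 1.0 to 1.56 in the other 13.

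**Figure D4:**
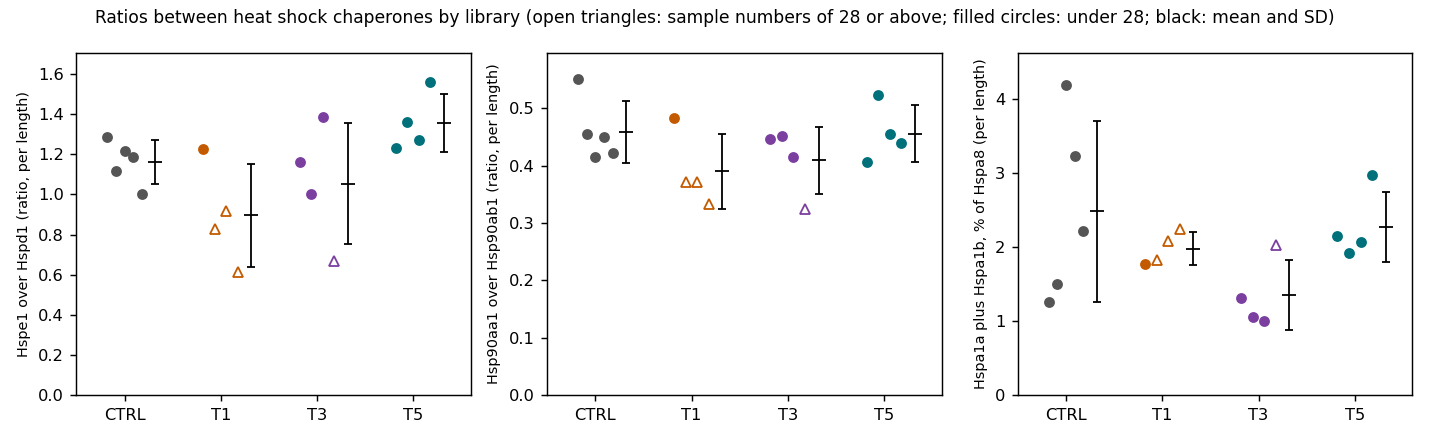
Ratios within libraries, by group: Hspe1 over Hspd1 and Hsp90aa1 over Hsp90ab1 per kb of exon, and the summed inducible pair as a percentage of Hspa8 per kb (y axes start at 0; mean and SD in black; open triangles for sample numbers of 28 or above). The open triangles lie below all filled circles in the first 2 panels (0.611 to 0.917 against 1.0 to 1.56, and 0.324 to 0.372 against 0.406 to 0.551) and among them in the third.

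Libraries of higher sample number stood apart in 3 of the 10 genes. In Hspa8, Hsp90aa1 and Hspe1 all 4 libraries of sample number 28 or above lay below all other 13, at 766 to 892 against 923 to 1335 CPM, 428 to 614 against 645 to 863 CPM, and 45.5 to 85.7 against 98.4 to 188 CPM. The other 7 genes overlapped. Among all genes tested, 10.3% lay below in this way and 4.31% above. The same 4 libraries had a mean log2 CPM of 7.97 to 8.42 over 26 nuclear genes of the respiratory chain, against 8.72 to 9.11 in the other 13. The part of the sample number in the differences of these 3 genes between groups was not tested apart from the fits given beside them.

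**Figure D5:**
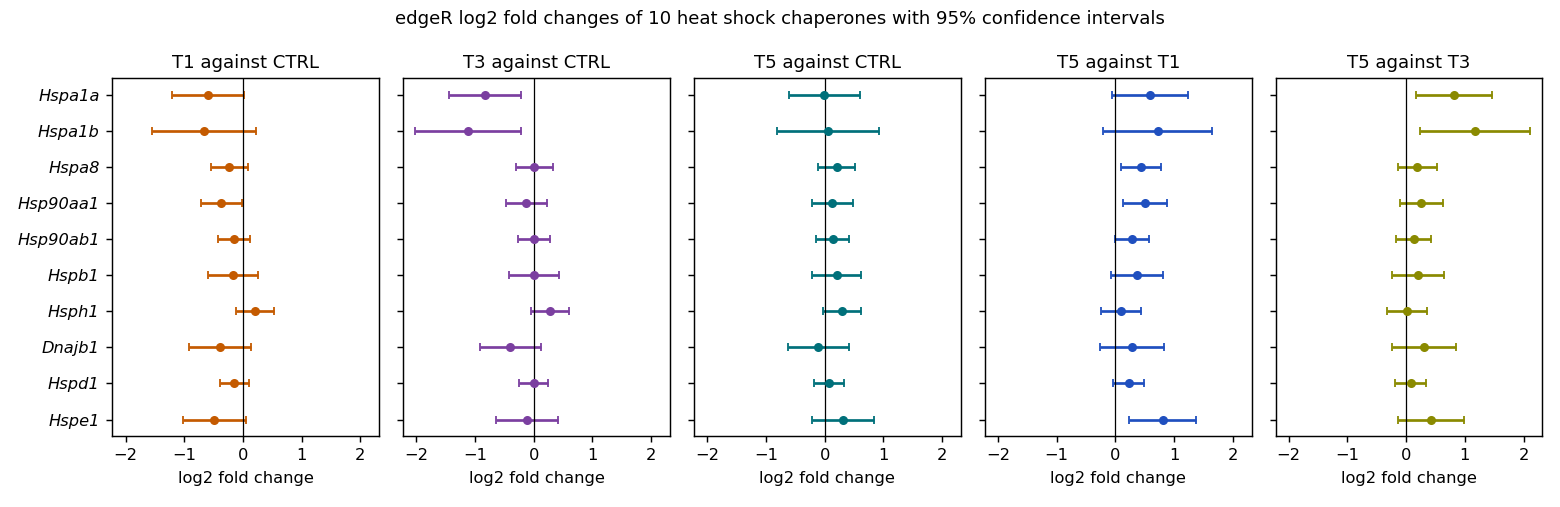
Log2 fold change of each chaperone gene in 5 of the 6 comparisons, from edgeR, with its 95% confidence interval; each panel title names first the group whose higher level gives a positive value. All points lie right of 0 in T5 against T1 and in T5 against T3, and most intervals hold 0.

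Signs were counted in each comparison, with none of these values called. All 10 log2 fold changes were positive in T5 against T1, with a median of 0.40 beside -0.01 for all genes, and all 10 were positive in T5 against T3, with a median of 0.23 beside 0.01. Of all genes, 48.8% were positive in T5 against T1 and 50.9% in T5 against T3. Such signs were not particular to these 10 genes. In T5 against T1 all 26 respiratory chain genes (median 0.61), all 8 CCT chaperonin genes and all 5 other small heat shock proteins tested were positive. In T5 against T3 these counts were 24 of 26, 8 of 8 and 5 of 5. The remaining lists of related genes, described below, held both signs in each comparison. Scaled to library totals in place of TMM, Hsph1 turned negative in both comparisons, at -0.07 against T1 and -0.03 against T3, and the median of all genes shifted to -0.19 in T5 against T1 and to 0.21 in T1 against CTRL. With the term for sample numbers 9 of 10 were positive in each, Hsph1 being negative, and the median of the 10 genes was 0.12 in T5 against T1 and 0.14 in T5 against T3. Both comparisons share the T5 libraries.

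In T1 against CTRL 9 of the 10 log2 fold changes were negative, Hsph1 being the exception, with a median of -0.30 beside 0.08 for all genes, of which 42.3% were negative. That count did not hold with the term for sample numbers, where 6 were positive and 4 negative, with a median of 0.04 beside -0.02. T3 against CTRL had 4 positive and 6 negative values, with a median of -0.06 beside 0.02, and 47.3% of all genes were negative. It had 1 positive and 9 negative values with upper-quartile scaling, 5 of each when scaled to library totals, and 6 positive and 4 negative with the term. T5 against CTRL had 8 positive and 2 negative values, with a median of 0.13 beside 0.02, and 54.5% of all genes were positive. T3 against T1 had 7 positive and 3 negative values, with a median of 0.15 beside -0.02, and 48% of all genes were positive. With the term it had 2 positive and 8 negative values, with a median of -0.06.

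Marker levels of other cell types varied beside these values, and were not tested between groups. The 10 ependymal markers summed to 614.0 to 757 CPM in CTRL, 442 to 613.8 CPM in T1, 314 to 630 CPM in T3 and 565 to 706.8 CPM in T5. Every T1 library thus lay below every CTRL library, but the highest T1 sum nearly met the lowest CTRL sum. Whether the choroid plexus epithelium also expresses the ependymal markers was not tested, so this sum does not measure the number of ependymal cells. The 12 markers of the choroid plexus epithelium had a median sum of 182600 CPM in CTRL, 148800 CPM in T1, 182500 CPM in T3 and 161100 CPM in T5, and all groups overlapped. The 12 endothelial markers summed to 122 to 275 CPM in CTRL, 232 to 562 CPM in T1, 158 to 315 CPM in T3 and 172 to 264 CPM in T5. The 12 neuronal markers summed to 20.7 to 148 CPM in CTRL, 125 to 488 CPM in T1, 32 to 527 CPM in T3 and 83.7 to 808 CPM in T5. In both lists T1 overlapped with CTRL. The 8 erythrocyte markers summed to 935 to 2217 CPM in T5, above the 434 to 830 CPM in T3, and overlapped with CTRL (424 to 1446 CPM). The 10 lymphocyte markers summed to 4.09 to 6.67 CPM in T5, above the 2.40 to 3.37 CPM in CTRL, and overlapped with T3 (1.64 to 8.37 CPM). None of these markers was at 0 throughout a group, and their part in the chaperone values was not tested beyond a fit with brain markers as a covariate.

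Partners of the chaperones were read from lists of related genes. No listed gene passed the edgeR test in a comparison with CTRL, and 5 of 140 tested (3.57%) did in T5 against T1, where 4.02% of all genes passed. The share of listed genes called was thus near that of all genes. In T1 against CTRL, the counts at an unadjusted p under 0.05 given below stand beside 11.7% of all genes lower and 9.43% higher at that p. With the term for sample numbers 2.05% of all genes were lower and 1.79% higher at that p. Of the lists, the small heat shock proteins and the mitochondrial chaperones and proteases had 1 lower gene each and the others 0. Higher at that p were 3 of 13 endoplasmic reticulum chaperones, 1 gene of the HSP90 co-chaperone list and 1 of the mitochondrial list. The other lists had 0 higher.

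Heat shock factors and their regulator Hsbp1 gave 2 of the 5 called genes. Hsf1, the gene of heat shock factor 1, averaged 35.3 ± 3.15 CPM in T5 and 49.4 ± 8.49 CPM in T1 (SD, n = 4 each), and fell by 0.49 ± 0.12 on the log2 scale (edgeR adjusted p = 0.0396). Hsbp1, whose small protein binds heat shock factor 1 and restrains it, averaged 282 ± 16.8 CPM in T5 and 183 ± 38.5 CPM in T1, and rose by 0.62 ± 0.15 on the log2 scale (edgeR adjusted p = 0.0340). With the term for sample numbers these values were -0.28 for Hsf1 (edgeR adjusted p = 0.527) and 0.24 for Hsbp1 (edgeR adjusted p = 0.484).

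Among other small heat shock proteins, 5 of 8 genes were tested. Cryab, which encodes alpha-B crystallin, averaged 625 ± 102 CPM in T5 and 416 ± 39.2 CPM in T1 and rose by 0.59 ± 0.16 on the log2 scale (edgeR adjusted p = 0.0474). The value was 0.27 with the term for sample numbers (edgeR adjusted p = 0.599). In T1 against CTRL all 5 were negative, with a median of -0.42, and 4 had an unadjusted p under 0.05. Hspb6, which encodes the small heat shock protein HSP20, averaged 60.8 ± 15.0 CPM in T1, against 107 ± 15.1 CPM in CTRL. Its log2 fold change was -0.82 ± 0.20, with an edgeR adjusted p of 0.128, and -0.79 with the term for sample numbers (edgeR adjusted p = 0.999). With the term 4 of the 5 were negative, with a median of -0.11.

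The CCT chaperonin, the ring that folds actin and tubulin in the cytosol, gave 1 called gene of 8 in T5 against T1. Its subunit gene Cct7 averaged 477 ± 30 CPM in T5 and 332 ± 37.3 CPM in T1 and rose by 0.52 ± 0.13 on the log2 scale (edgeR adjusted p = 0.0389). The value was 0.19 with the term for sample numbers (edgeR adjusted p = 0.565). All 8 subunit genes were positive in T5 against T1 and 7 of them had an unadjusted p under 0.05. In T1 against CTRL all 8 were negative, with a median of -0.27, and 6 had an unadjusted p under 0.05. Fitted with the term, 7 were positive in T5 against T1 and 3 negative in T1 against CTRL, and 0 had an unadjusted p under 0.05 in either. In T5 against CTRL all 8 were positive, with a median of 0.08.

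Other lists of chaperone partners gave no called gene. Of 24 HSP70 co-chaperones and other HSP70 or HSP40 genes, 6 were lower and 1 was higher in T1 than in CTRL at an unadjusted p under 0.05. Their lowest p was that of Hspbp1, an exchange factor of HSP70, with 67.9 ± 8.33 CPM in T1, against 89.4 ± 8.74 CPM in CTRL (edgeR adjusted p = 0.138), a log2 fold change of -0.40 that was -0.11 with the term. In the list of HSP90 co-chaperones, whose 13 genes include the endoplasmic reticulum HSP90 gene Hsp90b1, 3 were lower in T1 than in CTRL at that p and none higher. These were Ppp5c, Cdc37 and Fkbp4, and Cdc37, which brings kinases to HSP90, averaged 159 ± 22.4 CPM in T1 and 200 ± 18.5 CPM in CTRL. The difference was -0.33 on the log2 scale, and -0.06 with the term.

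Of 16 mitochondrial chaperones and proteases, 4 were lower in T1 than in CTRL at an unadjusted p under 0.05. Grpel1, the exchange factor of mitochondrial HSP70, averaged 88.6 ± 23.1 CPM in T1 and 128 ± 11.5 CPM in CTRL, with a log2 fold change of -0.53 ± 0.17 and an edgeR adjusted p of 0.140, and -0.03 with the term. Of 26 nuclear genes of the respiratory chain 21 were lower in T1 than in CTRL at that p, with a median of -0.49, and with the term 0 were, with a median of -0.01. Ndufb8, a complex I subunit gene, rose in T5 against T1 by 0.76 ± 0.21 on the log2 scale (268 ± 31.8 CPM in T5, 159 ± 51.1 CPM in T1, edgeR adjusted p = 0.0499). Ndufb8 had 0.18 with the term for sample numbers (edgeR adjusted p = 0.687). The 13 endoplasmic reticulum chaperones were all positive in T5 against CTRL, with a median of 0.19 (12 of 13 when scaled to library totals), and 0 had an unadjusted p under 0.05. With the term all 13 stayed positive there, with a median of 0.19, and 2 were higher at that p, beside 6.3% of all genes. Their median in T1 against CTRL was 0.00, and 0.20 with the term, where 13 were positive. In T3 against CTRL it was 0.20, and 0.25 with the term, where 12 were positive.

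Stress genes outside the chaperones were read in the same way. Of 12 genes of the proteotoxic and oxidative stress responses, 4 were lower in T1 than in CTRL at an unadjusted p under 0.05 and 0 were higher, among them Sqstm1, the p62 autophagy receptor (506 ± 30.2 CPM in T1, 647 ± 39.6 CPM in CTRL, edgeR adjusted p = 0.132). Its log2 fold change was -0.36, and -0.22 with the term. Of 19 immediate early genes tested, 10 were higher in T1 than in CTRL at that p, with a median log2 fold change of 0.86. With the term 0 were, with a median of -0.03. Against CTRL, 1 was higher in T5 at that p, beside 3.89% of all genes, and 6 were with the term, beside 6.3%. There 0 were lower in either fit, and the median was 0.47 in both. Between T5 and T3, 0 were higher in T5, and 7 were with the term, beside 10.3% of all genes. Fos, a gene switched on within minutes by many stimuli, averaged 16.1 ± 15.7 CPM in T1 and 2.39 ± 1.23 CPM in CTRL (edgeR adjusted p = 0.138). The difference was 2.75 on the log2 scale, and 0.22 with the term.

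Across the 17 libraries, the genes whose log2 CPM followed a chaperone most closely differed from chaperone to chaperone. With Hsph1 they were P4ha1 (Pearson r = 0.86), Mlec (0.82), Tmem185a (0.80), Magt1 (0.79) and Pdia3 (0.77). Genes of endoplasmic reticulum proteins, P4ha1, Mlec and Pdia3 included, were among them. With Hspd1 they were Nubpl (0.88), Dnaja1 (0.87), Fam69a (0.86), Ctsl (0.86) and Nfyc (0.86), and Dnaja1 is another HSP40 gene. With Hspa1b they were Mknk2 (0.74), Serpinh1 (0.73), Usp2 (0.73), Rce1 (0.73) and Ddit3 (0.72). Serpinh1 encodes HSP47, the collagen chaperone of the endoplasmic reticulum.

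Within the set, Hspa1b correlated with Hspa1a at 0.81 and with Dnajb1 at 0.75, Hspd1 with Hspe1 at 0.84 and with Hspa8 at 0.83, and Hsph1 with no chaperone of the set above 0.61. The comparison was made over 10487 genes that averaged 5 CPM or more. All these values share the same 17 libraries, their depth and their groups, and are a description.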

How the data were processed

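RNA was sequenced after cDNA synthesis with the SMART-Seq v4 kit, per the labels' protocols. The authors deposited raw counts per Ensembl gene. Build GRCm38, featureCounts 1.6.4, STAR 2.6.1b and Trimmomatic 0.39 appear in the submitters' processing notes; for annotation release, strand setting and shared reads the sources used here give nothing. PCR copies were counted as reads.

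Symbols, exon lengths and 1-based coordinates came from GENCODE M21 on GRCm38 (55394 of 55487 identifiers matched). Where a symbol had several rows, the one with the higher total was used. The test was that of edgeR 4.0.16 under R 4.3.3 (TMM, filterByExpr by group, 1 mean per group over 17 libraries, robust quasi-likelihood F test, two-sided, Benjamini-Hochberg over 16851 genes, threshold 0.05). The common dispersion was 0.141. SE is the absolute log2 fold change over the square root of F, and is approximate; 95% intervals use edgeR's degrees of freedom. Likeness used log2(CPM + 1). DESeq2 1.42.0 and limma 3.58.1 (voom) were among 29 alternatives. The procedure was tested on simulated data.

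Groups came from the time point label; replicate numbers follow accession order and pair nothing. The chaperone set, the lists, the tests and the rule for named genes (up to 3 genes of a list with the smallest p against CTRL, and the 5 most alike of 3 chaperones) were chosen with earlier results of these data known. Genes of the lists called in T5 against T1 were added after their values were seen.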

Additional observations from a re-analysis of the deposited data

Results flagged for a closer look

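In 52 sets of values, each 1 quantity in 1 group, the highest and the lowest library were compared with the others by Dixon's ratio of the gap to the range. A library stood apart in 2 of them, and chance alone gives such a result in about 1 of 20 sets. Hsp90aa1 in T3 replicate 4 was 428 CPM, against 730 to 753 CPM in the other T3 libraries (ratio 0.927). T3 replicate 4 is the T3 library with a sample number of 28 or above. Dnajb1 in T3 replicate 1 was 145 CPM, against 99.9 to 102 CPM in the other T3 libraries (ratio 0.956).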

How the results depend on the processing

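No paired analysis was possible because the replicate numbers only follow accession order. The number of chaperone genes called was 0 in all 6 comparisons and stayed at 0 under all 29 alternatives in T3 against CTRL, T5 against CTRL and T5 against T3. With limma-voom it was 3 in T1 against CTRL and 3 in T3 against T1. In T5 against T1 it was 3 with DESeq2, 3 with limma-voom and 3 with a brain marker covariate, and 0 to 3 when a library was left out, 3 being reached without T1 replicate 1 or without T3 replicate 4. The called genes were Hspa8, Hsp90aa1 and Hspe1 each time, and the cause was not tested. Over the alternatives their adjusted p in T5 against T1 ran from 0.00637 to 0.942, 0.0105 to 0.942 and 0.00778 to 0.884. Of 1740 recomputed log2 fold changes of chaperone genes, 94 had another sign than the main value, none of them a called one, and 38 of the 60 main values had none. Against CTRL, Hsph1 was positive and not called under all 29, with log2 fold changes of 0.08 to 0.34 (T1), 0.20 to 0.36 (T3) and 0.22 to 0.39 (T5). Among all genes, edgeR called 677 in T5 against T1, 42 when fitted on these 2 groups alone, and 0 with the term for sample numbers (1810 at an unadjusted p under 0.05). It called 0 in T1 against CTRL (3553 at an unadjusted p under 0.05; DESeq2 826, limma-voom 4084) and 2203 without T1 replicate 1. Groups of 4 or 5 libraries, the 114 to 802 reads of the Hspa1a and Hspa1b pair, and the single T1 library of lower sample number limit what these comparisons can show.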
